A study of Mus musculus with 3 samples.

Results

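Of the genes that build and seal the outermost layers of the skin, 10 were followed in the genital tubercle, from which the penis or the clitoris grows. They are Sfn, Calml3, Krtdap, Sbsn, Tgm1, Ivl, Sprr1a, Tgm3, Lor and Flg, named here in the approximate order in which they come on during epidermal differentiation. Every probe set annotated to exactly 1 of these symbols was taken, which gave 16 probe sets for 10 of 10 genes, out of 45037 probe sets and 18193 genes in all. RNA came from 3 mouse embryos of embryonic day 14, Theiler stage 22, each hybridised to 1 array without pooling. All 3 had FVB/N mothers and fathers carrying the SMAA/EYFP transgene, a yellow fluorescent reporter of smooth muscle actin, and the fluorescence guided the dissection of the whole region, epithelium and mesenchyme together. They form 1 group, with no treatment and no control. The label that differs among them is the limb landmark: in replicate 3 the fingers were visible, whereas in replicates 1 and 2 the footplate borders were indented. All 3 carry the label male, but in replicate 3 the probe sets of Eif2s3y, Kdm5d and Uty, genes of the Y chromosome, read 37.9, 37.1 and 45.3 and were below background, while Xist, the RNA of the inactive X chromosome, read 61883. In replicates 1 and 2 these 3 Y-linked genes were above background and the same Xist probe set was not. Replicate 3 thus goes against its label, and the main counts and differences are given with and without it.

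The cornified envelope is a shell of proteins that replaces the plasma membrane of keratinocytes as they die at the skin surface. Cells leave the basal layer, pass through a spinous layer and then a granular layer, and make the envelope's parts on the way. Scaffold proteins such as involucrin are laid down first, loricrin and the small proline-rich proteins are added, and transglutaminases join them by bonds between glutamine and lysine. Profilaggrin, stored in the granules of the last living layer, is processed into filaggrin, which bundles keratin filaments. In the mouse embryo the surface is at first covered by the periderm, a temporary layer that is shed once the barrier is complete. Loricrin, involucrin, Sprr1a and profilaggrin are encoded together with many relatives in the epidermal differentiation complex, a gene cluster on chromosome 3.

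The sequences just upstream of the start sites of 5 of these genes are shown because they include genes above and below background in this tissue that share short motifs. Each line gives 150 bases ending next to the annotated start site, on the gene's own strand, from RefSeq annotation of GRCm38.p6. Capitals mark TGANTCA, the core motif of AP-1 factors, and TATAAA, the sequence motif of the TATA box, wherever it occurs.
Lor, chr3:92083143-92083292, minus strand: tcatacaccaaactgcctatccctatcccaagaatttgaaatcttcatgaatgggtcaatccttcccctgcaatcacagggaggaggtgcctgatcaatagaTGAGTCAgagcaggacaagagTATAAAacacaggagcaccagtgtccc
Sbsn, chr7:30751321-30751470, plus strand: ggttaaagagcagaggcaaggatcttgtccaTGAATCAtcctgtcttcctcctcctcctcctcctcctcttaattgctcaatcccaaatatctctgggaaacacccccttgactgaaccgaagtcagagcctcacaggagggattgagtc
Krtdap, chr7:30787755-30787904, plus strand: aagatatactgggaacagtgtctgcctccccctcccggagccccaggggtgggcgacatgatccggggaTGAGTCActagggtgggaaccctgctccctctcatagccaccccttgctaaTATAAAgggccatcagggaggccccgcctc
Ivl, chr3:92573736-92573885, minus strand: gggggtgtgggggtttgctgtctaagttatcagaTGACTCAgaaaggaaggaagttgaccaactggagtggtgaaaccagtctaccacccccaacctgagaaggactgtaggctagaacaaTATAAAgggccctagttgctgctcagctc
Flg, chr3:93273396-93273545, plus strand: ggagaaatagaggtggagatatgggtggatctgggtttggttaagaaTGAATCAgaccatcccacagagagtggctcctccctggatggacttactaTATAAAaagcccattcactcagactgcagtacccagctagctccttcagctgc

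Windows of 250 bases upstream of a start site were given for 9 of the 10 genes, with 2 windows for Tgm1. TGANTCA was found on either strand in windows of 6 of these 9 genes, the 5 shown and Sprr1a, against 6.75% of all 32851 windows. TATAAA was found in 6 of 9, namely Krtdap, Ivl, Sprr1a, Tgm3, Lor and Flg, against 12.4% of all windows, and no match of the 2 motifs overlapped in these genes. The nearest TGANTCA match began 48 bases upstream of the start site in Lor, 81 in Krtdap, 103 in Flg, 116 in Ivl and Sprr1a and 119 in Sbsn. TATAAA began 27 bases upstream in Lor, 28 in Tgm3, 29 in Ivl, 30 in Krtdap, 43 in Sprr1a and 53 in Flg. A further match in Sbsn runs across the annotated start site, and RefSeq's gene record of Sbsn begins further upstream than this start. Lor and Krtdap, above background in every sample, and Ivl and Flg, above it in none, all carried both motifs. A match is a run of letters, not a measured binding site.

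Probe sets of sensory receptors (olfactory, vomeronasal and bitter taste), 83 in number, defined background as their 95th percentile in each sample, at signals of 135, 251 and 197 in replicates 1, 2 and 3. By the brightest probe set of each gene, 5 of the 10 genes were above background in 3 of 3 samples (Krtdap, Sbsn, Tgm1, Tgm3 and Lor), against 60.6% of all genes measured. Calml3 and Sprr1a were above it in 2 samples each, and Sfn, Ivl and Flg in none, where 26.6% of all genes lay. By probe set, 8 of 16 were above background in 3 of 3 samples, against 48.1% of all, and 6 of 16 in none, against 35.3%. The share of these genes above background was thus near or below that of genes at large. Without replicate 3, 6 of 10 were above background in both remaining samples, against 62.3% of all genes, the added gene being Calml3. Signals are linear array intensities as deposited and are compared between samples, not between genes, and the number of arrays limits the precision. Nothing in the labels says whether the embryos shared a litter, so the spread mixes animals, dissection, amplification and hybridisation.

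**Figure D1:**
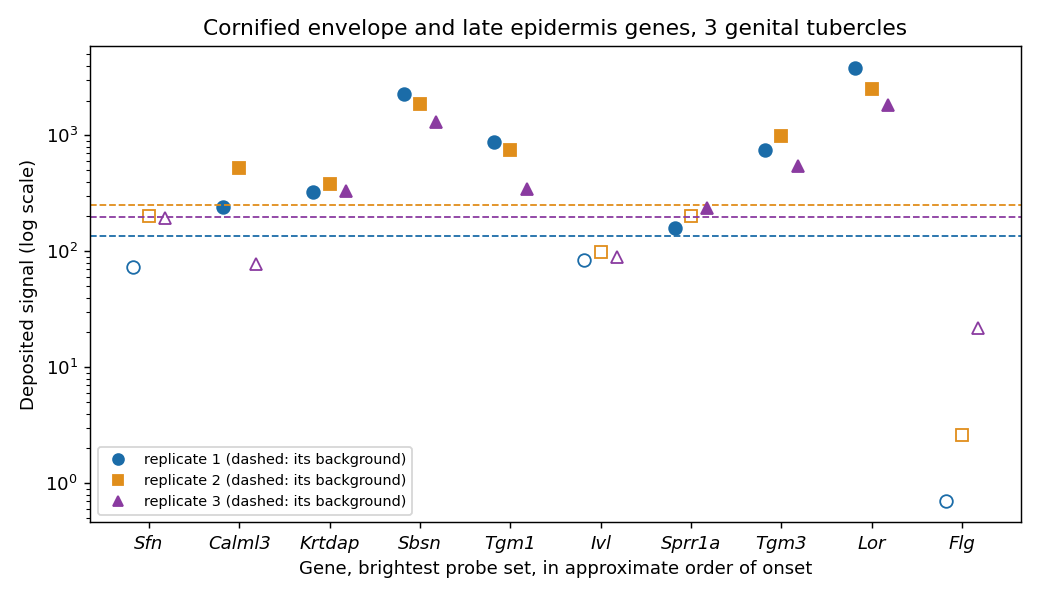
Deposited signal (log axis) of the brightest probe set of each of the 10 genes in replicates 1 (circles), 2 (squares) and 3 (triangles), with genes in approximate order of onset; filled symbols are above the background of their own sample (dashed lines) and open symbols are not. Krtdap, Sbsn, Tgm1, Tgm3 and Lor are filled in all 3 samples, and Sfn, Ivl and Flg in none.

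The members thought to act earliest gave mixed readings. Sfn encodes 14-3-3 sigma, an adaptor protein of stratified epithelia that restrains the cell cycle, and its only probe set read 73.7, 204 and 195 in replicates 1, 2 and 3. It was below background in every sample, so no difference between samples can be read from it. Calml3, a calmodulin-like calcium-binding protein of epithelial cells, read 243, 528 and 78.6. It was above background in replicates 1 and 2 and below it in replicate 3, and was at least 2.43-fold higher in replicate 2 and at least 1.31-fold higher in replicate 1 than in replicate 3, each bound taken against the background of replicate 3 after the samples were aligned on a common median.

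Krtdap and Sbsn encode secreted proteins of the spinous and granular layers. Krtdap read 323, 378 and 332, a mean of 344 ± 29.6 (SD, n = 3), above background in every sample. After alignment its log2 values had an SD of 0.03, with at most 0.05 between any samples. Its signal was not far above background, at 378 against 251 in replicate 2, which limits what this small spread can show. Sbsn, or suprabasin, read 2266, 1878 and 1295 on its brightest probe set, 1813 ± 489 (SD, n = 3), with replicate 1 highest and replicate 3 lowest. A further probe set of Sbsn, 1439630_x_at, gave close values of 2103, 1874 and 1322 in the same order, whereas 1459898_at read 13.9, 65.9 and 24.2 and was below background throughout. Replicate 1 was 1.86-fold over replicate 3 on the brightest set and 1.69-fold on the other.

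Both crosslinking enzymes were above background in all samples. Tgm1, the membrane-bound transglutaminase whose loss causes lamellar ichthyosis, read 886, 752 and 345 in replicates 1, 2 and 3, a mean of 661 ± 282 (SD, n = 3). Replicate 3 was lowest, with replicate 1 at 2.74-fold and replicate 2 at 1.98-fold of it after alignment. Replicate 1 was in turn at 1.38-fold of replicate 2. Tgm3, a transglutaminase of the granular layer and the hair follicle, read 755, 997 and 539.7, or 764 ± 229 (SD, n = 3). Its other probe set, 1440150_at, read 679, 479 and 321. The 2 sets agreed that replicate 3 was lowest and disagreed on whether replicate 1 or replicate 2 was highest.

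Of the structural proteins, loricrin alone was above background in every sample. Lor, the main protein of the mature envelope, read 3846, 2538 and 1842 on its brightest probe set, 2742 ± 1018 (SD, n = 3). Set 1448745_s_at, whose probes can match more than 1 transcript, read 3548, 2263 and 1086 in the same order. Replicate 1 was 2.22-fold and 3.48-fold over replicate 3 on these sets. Set 1420184_at, also annotated to Lor, read 106, 227 and 119.6 and was below background throughout. Without replicate 3 the mean of Lor was 3192, from replicates 1 and 2 alone.

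Involucrin, the glutamine-rich scaffold laid down beneath the membrane, was not above background on either of its probe sets. The brighter read 83.8, 99.2 and 90.1 and the other 7.17, 5.77 and 7.69. Sprr1a, a small proline-rich protein that bridges other envelope proteins, read 159, 200.4 and 236, close to the background on both sides of it: above in replicates 1 and 3, below in replicate 2. Flg, which encodes profilaggrin, read 0.71, 2.59 and 21.8 on its only probe set, far below background in every sample. These readings bound each transcript only as far as its probe sets measure it.

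**Figure D2:**
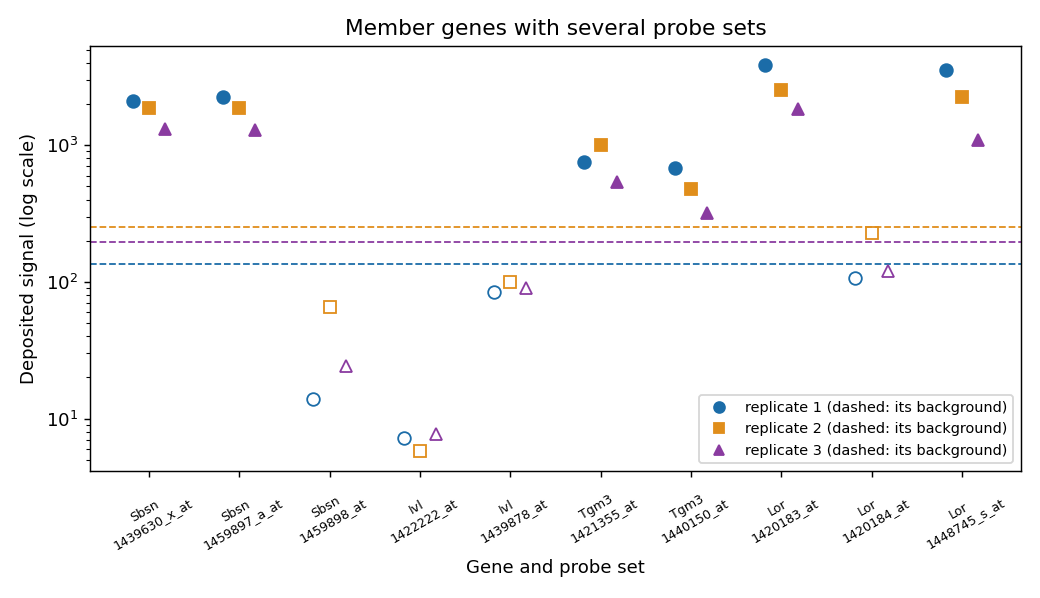
Deposited signal (log axis) of every probe set of the 4 genes with several (Sbsn, Ivl, Tgm3 and Lor) in replicates 1, 2 and 3, with filled symbols above and open symbols not above the dashed background of their own sample. Sbsn and Lor each have 1 set below background in all samples beside others above it, and Ivl has no set above it.

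Replicate 3 held the lowest aligned value of all 5 genes above background in every sample, where 30.5% of all genes above background had their lowest value there. For Krtdap this rested on 0.05 log2 units, and it was not lowest there without alignment or with alignment on all probe sets, which left 4 of 5 against 35% and 25.4% of all genes. The 5 genes had a median log2 difference of 0.90 between replicates 1 and 3, against 0.18 over all genes. Lor (1.15) and Tgm1 (1.45) exceeded 2-fold, as 4.71% of all genes did in that direction. The SD of aligned log2 signals was 0.59 for Lor, 0.45 for Sbsn, 0.74 for Tgm1 and 0.39 for Tgm3, against a median of 0.33 and a 90th percentile of 0.65 over all genes. Within replicates 1 and 2 alone the median difference was 0.46, against 0.32 over all genes. Between replicates 2 and 3 it was 0.40, against -0.13.

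The same differences are given for other epithelial gene lists, whose agreement with the 10 genes was not tested. Of all genes, 60.6% were above background in 3 of 3 samples and 62.3% in replicates 1 and 2. Of those above it in 3 of 3, 30.5% were lowest in replicate 3. The share of all genes higher in replicate 1 than in replicate 3 was not counted, but their median difference was already 0.18. Of genes of the basal layer 12 of 14 were above background in 3 of 3 samples, and 12 of 12 of these were higher in replicate 1 than in replicate 3, by a median of 0.51 (log2), among them the basal keratin Krt14 (0.82), the epithelial master regulator Trp63 (0.38), the desmosome-associated Perp (0.38) and Itga6 (0.40), an integrin that anchors basal cells. These figures rest on the brightest probe set of each gene, and further sets did not all give the same direction. A further set of Itga6, above background in 3 of 3 samples, read 4207, 8880 and 7990 and was lowest in replicate 1. A further set of Krt14 read 10239, 11950 and 5127 and was lowest in replicate 3. The summed signal of the basal genes was 161082, 135458 and 116649 in replicates 1, 2 and 3. Keratins found in periderm gave 6 of 7 above background and 6 of 6 higher in replicate 1, by a median of 1.20, led in level by Krt6a (1.45) and Krt8 (1.30). Their summed signal was 23707, 15828 and 10055. Some of these keratins are also made by urethral epithelium, and of the urothelial list 3 of 7 were above background in 3 of 3 samples, and 5 of 7 in replicates 1 and 2. The 3 were Upk1b, at 3375, 2184 and 1081, Krt7, at 2212, 2256 and 1177, and Upk2, at 435, 661 and 572. Upk1b and Krt7 were lowest in replicate 3 and Upk2 in replicate 1. Of spinous layer genes 10 of 13 were above background, with a median of 0.36 and 8 of 10 higher in replicate 1, but 4 of 10 lowest in replicate 3. Krt1, the suprabasal keratin, read 901, 469 and 503. Its partner Krt10 read 5242, 4506 and 6806 and was highest in replicate 3, as was the desmosomal cadherin Dsg1a (177, 428 and 659). Krt10 and Dsg1a were the only ones of the 10 not higher in replicate 1 than in replicate 3. Dsp (35497, 38684 and 33157) and Pkp1 (16207, 12679 and 7258), the brightest of the list, were lowest in replicate 3. Mesenchymal genes had a median of -0.07, which became 0.25 when the samples were aligned on all probe sets. Without replicate 3, the median of replicate 1 minus replicate 2 was 0.38 for basal, 0.62 for periderm, 0.51 for spinous and 0.15 for mesenchymal genes, against 0.32 over all genes. For replicate 2 minus replicate 3 it was 0.16, 0.43, -0.17 and -0.15 in that order, against -0.13 over all genes. In bulk tissue fewer cells of a type and less RNA per cell cannot be told apart.

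The samples differed in further ways. Liver genes summed to 112475, 52054 and 9136 in replicates 1, 2 and 3, and skeletal muscle genes to 24054, 6711 and 2854. Above background in 3 of 3 samples were 4 of 6 liver and 4 of 8 muscle genes, against 60.6% of all genes. The median log2 difference of the liver genes was 1.67 between replicates 1 and 2 and 2.30 between replicates 2 and 3. In replicate 3 the liver genes Fgb and Apoa1 read 8.49 and 14.9, below background, and the muscle gene Ckm was below it in every sample. The ratio of 3′ to 5′ signal of the Gapdh control, which rises as RNA or its copies shorten, was 21.5, 14.9 and 14.1, and that of the actin control 7.38, 2.21 and 4.42. Their part in the differences of the epidermal genes was not tested.

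**Figure D3:**
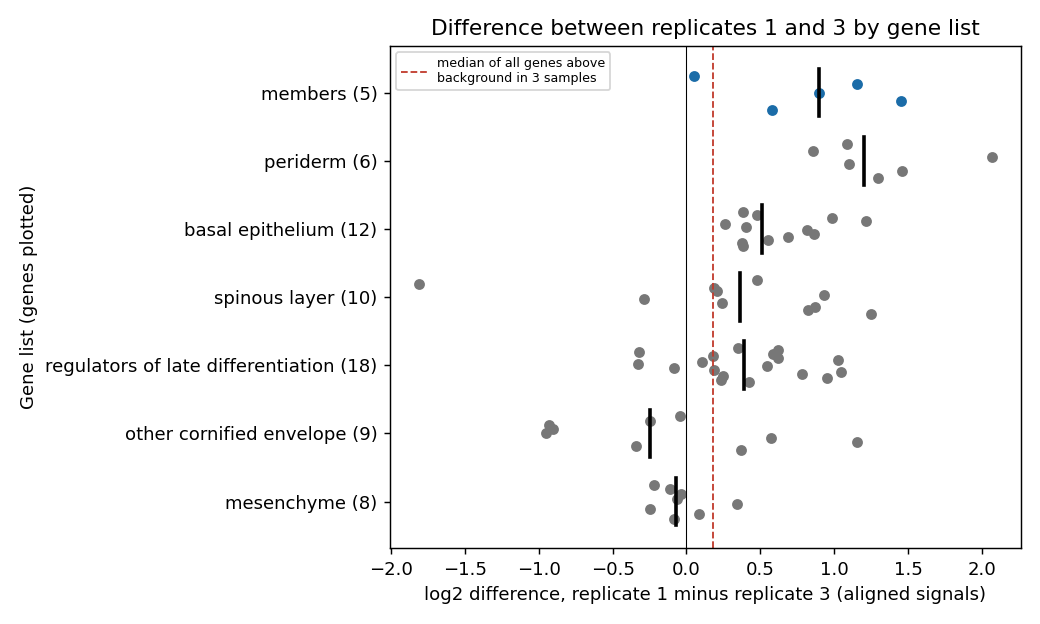
log2 difference of aligned signals, replicate 1 minus replicate 3, for each gene above background in 3 of 3 samples (points), by gene list, with the list's median (black bar) and the median of all such genes (dashed line at 0.18). The 5 member genes have a median of 0.90 and the 6 periderm keratins of 1.20, while the 8 mesenchymal genes have a median of -0.07.

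The landmark contrast set replicate 3, with visible fingers, against replicates 1 and 2. Only 1 residual degree of freedom was left, and the lone sample was assumed to vary like the others. Of the 16 probe sets, 10 were above background somewhere and were fitted. On the brightest sets the log2 difference, replicate 3 minus the mean of the others, was -0.74 ± 0.70 (SE) for Lor, -0.65 ± 0.64 for Sbsn, -1.22 ± 0.63 for Tgm1, -0.66 ± 0.60 for Tgm3 and -0.05 ± 0.60 for Krtdap. Calml3 and Sprr1a were each below background in 1 sample, so their fitted differences are not measured on both sides and are not given. None of the 10 passed limma's Benjamini-Hochberg threshold, and 0% of the 29121 probe sets fitted did, while 611 (2.1%) had an unadjusted p under 0.05. The contrast cannot tell the landmark apart from the sex of replicate 3 or from any other feature of that sample.

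Most other cornified envelope genes on the array were below background. Of 36 measured, 9 were above it in 3 of 3 samples, where 60.6% of all genes were, 3 in some and 24 in none, where 26.6% of all genes were. Without replicate 3 the count above background in both remaining samples was 9 of 36, against 62.3% of all genes. The plakin scaffold proteins, which tie the envelope to desmosomes and keratins, were among the 9: Ppl (periplakin) read 1950, 1554 and 1397 and Evpl (envoplakin) 419, 754 and 459.6. Scel, or sciellin, a precursor of the envelope, read 4019.6, 4119 and 1923, with replicate 3 lowest. The other 6 were Tchh, the trichohyalin of the hair follicle's inner sheath, Sprr2k and the late cornified envelope genes Lce3b, Lce1i, Lce1a2 and Lce1a1. Of these 6, Tchh (285, 385 and 235) was lowest in replicate 3. The other 5 were lowest in replicate 1: Lce3b read 307, 700.3 and 631, Lce1i 246, 879 and 489, Lce1a2 147, 324 and 297, Lce1a1 193, 252 and 244, and Sprr2k 202, 291 and 273. The background was itself lowest in replicate 1, and Lce1a1, Lce1a2 and Sprr2k lay close to it. Lce1a1 read 252 against a background of 251 in replicate 2, and Sprr2k 291 against the same value. Lce1a2 read 147 against 135 in replicate 1. The other probe set of Lce1a1 was below background in every sample. The order of the samples in these 3 genes is therefore uncertain. Lce1g, Rptn and Cnfn were above background in only some samples. Many Lce and Sprr genes are near-identical copies, so which copy a probe set reads is uncertain.

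By position, 4 of the 10 genes lie in the epidermal differentiation complex. In the GRCm38.p6 gene order from S100a1 to S100a10 the complex holds 70 protein-coding genes, with Lor in place 18, Sprr1a in 33, Ivl in 35 and Flg in 64. Of 44 other genes of the complex measured, 12 (27.3%) were above background in 3 of 3 samples, against 60.6% of all genes. By class, 6 of 12 S100 genes, which encode small calcium-binding proteins, were above background in 3 of 3 samples, but only 5 of 22 Lce and Sprr genes. On their brightest sets S100a16 (12678, 6469 and 8533) and S100a10 (9222, 6467 and 7268) were highest in replicate 1. So were S100a6 (1311, 1042 and 636) and S100a13 (466, 279 and 208). A further set of S100a10 (2482, 1532 and 1881) was also highest in replicate 1, but another (215, 579 and 312) was lowest there. S100a14 and S100a1 were also above background throughout. S100a8, a gene of neutrophils and stressed keratinocytes, read 859, 303 and 51.7 and was below background in replicate 3, as was Prr9 (257, 450.4 and 152). S100a4 was above background in replicate 1 alone. Without replicate 3, 14 of the 44 were above background in both remaining samples, against 62.3% of all genes. Hrnr, which neighbours Flg, read 0.87, 1.79 and 13.2, below background like Flg itself.

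**Figure D4:**
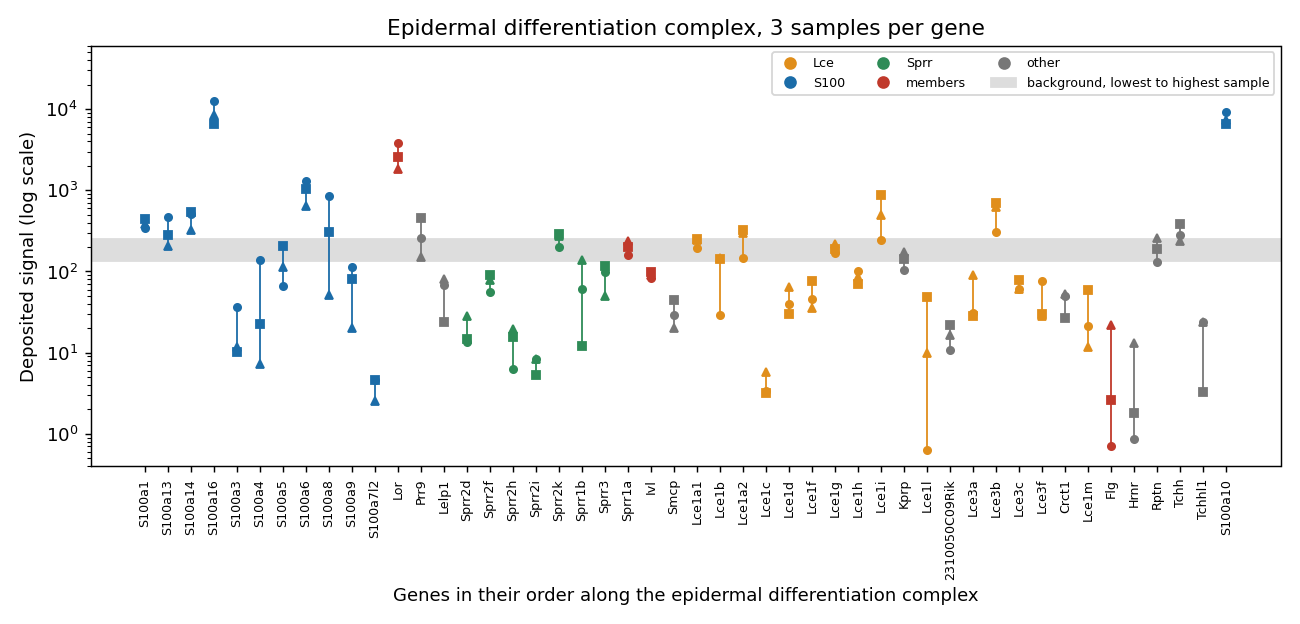
Deposited signal (log axis) of 48 genes of the epidermal differentiation complex in their order along the cluster, with 3 points per gene (replicate 1 circles, 2 squares, 3 triangles) joined by a line and coloured by class; the grey band runs from the lowest to the highest background of the samples. Lor lies above the band in all 3 samples, Ivl and Flg below it, and Sprr1a within it.

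Of the regulators of late differentiation 18 of 26 were above background in 3 of 3 samples, against 60.6% of all genes, and 2 in none, against 26.6%. Without replicate 3 the count was 19 of 26, against 62.3% of all genes. Klf4, a zinc finger factor required for the skin barrier, read 15530, 10842 and 20707 on its brightest set, highest in replicate 3. Its other set, above background in 3 of 3 samples, read 814, 1900 and 1485, so the sets disagreed on the order. Tfap2a (20063, 15408 and 11078), an AP-2 factor of early surface ectoderm, was highest in replicate 1 on its brightest set. On their brightest sets Tfap2c, a further AP-2 factor, read 13588, 9167 and 12305, and the kinase Ripk4, needed for epidermal differentiation, 9853, 9055 and 6101. The other set of Ripk4 read 1679, 1266 and 2507 and was highest in replicate 3. Relatives of the members by protein family were read as well. The 6 other 14-3-3 genes, from Ywhab to Ywhah, were all above background in 3 of 3 samples, with Ywhab at 58143, 59356 and 66789, while Sfn was not. Of the transglutaminases Tgm2, the tissue transglutaminase, read 6238, 1235 and 1424 and F13a1, the subunit of clotting factor XIII, 791, 366 and 857, while Tgm4, Tgm5 and Tgm6 were below background in every sample. Calml4 read 629.7, 684 and 755, above background throughout, while Calm4, a calmodulin-like gene of skin, was below it in every sample.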

How the data were processed

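Per the submitters' processing notes the arrays were processed in GCOS; neither version nor algorithm was stated (not given in the sources used here). Per the labels, total RNA was amplified in 2 rounds. The deposited table holds linear intensity values per probe set, with the same trimmed mean of 1500.01 in each sample, so the authors had scaled them globally. Of 45101 probe sets 64 controls were left out. A platform annotation gave 34945 of the rest 1 symbol, 932 several and 9160 none, and 0 columns were of no sample. Signals below 1 were set to 1 and taken to log2 with Python 3.11.15, and samples were aligned on the medians of probe sets above background in 3 of 3 samples, which differed by 0.23 (0.70 over all probe sets). Folds and log2 differences are after alignment. A gene is represented by its brightest probe set. The landmark contrast used limma 3.58.1 (lmFit, eBayes, two-sided, Benjamini-Hochberg) over the 29121 probe sets that exceeded background somewhere. It was also run on simulated data in which all 3 samples had the same spread. That run could not test whether the lone sample varies like the others. Named genes are all members, up to 4 per list with the highest mean signal above background in 3 of 3 samples, and genes above background in envelope, family and complex lists. Krt1, Dsg1a and the genes named as below background outside these rules were chosen after their values were seen. The members and lists were chosen with earlier results of these data known. Onset order is approximate textbook knowledge. Alternatives covered the background percentile, probe set choice, alignment, floor, filter, variance trend and left-out replicates.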

Additional observations from a re-analysis of the deposited data

How the results depend on the processing

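The count of 5 genes above background in 3 of 3 samples ran from 5 to 6 with 1 replicate left out, was 6 and 5 with the background at the 90th and 99th percentile, and 7 when 2 of 3 samples sufficed. It fell to 3 when all probe sets of a gene had to pass, since 1 set each of Sbsn and Lor did not. The median log2 difference between replicates 1 and 3 over these genes was 0.81 without alignment and 1.22 with alignment on all probe sets, where the median of all genes was 0.09 and 0.50. For the landmark contrast limma called 0 probe sets with all probe sets fitted, with a variance trend, without alignment and with quantile normalization. It called 1 when the fit was limited to those above background in every sample and 86 with alignment on all probe sets. None of these was a probe set of the 10 genes. With a replicate left out the contrast has no residual degree of freedom and was not run. No paired analysis was possible because the samples form 1 group. No depth is known for arrays, and levels near or below background limit Sfn, Calml3, Ivl, Sprr1a and Flg, and to a lesser degree Krtdap.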

Other observations

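Genes that make the lipids and carry out the proteolysis of the late epidermis were read too, beside 60.6% of all genes above background in 3 of 3 samples and 62.3% in replicates 1 and 2. Of barrier lipid genes 7 of 13 were above background in 3 of 3 samples and 7 of 13 in replicates 1 and 2. Cers3, the ceramide synthase of the skin barrier, read 5571, 4037 and 2832 in replicates 1, 2 and 3, Abhd5, a cofactor of lipid breakdown, 2449, 1698 and 1815, and Smpd1, an acid sphingomyelinase, 2633, 1588 and 1733. Alox12b, Abca12 and Sult2b1 were below background in every sample. Of genes of desquamation and protein processing 6 of 14 were above background in 3 of 3 samples, namely Blmh, Ctsl, Asprv1, St14, Casp14 and Prss8, and 7 of 14 in replicates 1 and 2. Asprv1, a protease that processes profilaggrin, read 1633, 1202 and 1472 in samples where the probe set of Flg was below background. Casp14, the caspase of cornifying cells, read 411, 673 and 649 on its brighter probe set. Its other set read 15.8, 11.5 and 15.4 and was below background in every sample, so the sets of Casp14 disagreed. Klk5, Klk6 and Klk7, kallikreins that shed the outer layer, were below background in every sample, as was Cdsn, the corneodesmosome protein they cut.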
